A study of Homo sapiens with 12 samples.

Results

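The IFIT and IFITM genes and their companions IFI6, IFI27 and BST2 encode antiviral proteins that cells make in response to interferon. The 10 genes described here were taken by name: IFIT1, IFIT2, IFIT3, IFIT5, IFITM1, IFITM2, IFITM3, IFI6, IFI27 and BST2. They are 10 of the 24559 gene symbols in the table, and all 10 passed the filter on low counts, which left 16538 symbols for testing. No measured value entered the choice of these names, although earlier results of the same libraries were known when the list was drawn up.

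RNA bound to several ribosomes (polysomes) was purified on sucrose gradients from 3 human triple-negative breast cancer cell lines and sequenced in 12 libraries, 2 in each of 6 groups. MDA-MB-231 and SUM159 cells carried either a control (EV) or an shRNA against TRMT112 (KD), and BT549 cells carried either a control (EV) or a TRMT112 expression clone (OE). TRMT112 is an activating partner of several methyltransferases, among them enzymes that modify 18S ribosomal RNA. The question was how the mRNAs engaged in translation shift when the amount of this partner is lowered or raised.

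The labels call every control "EV CTRL" and give "no treatment" for all groups, so no interferon was added according to them. By the study's methods, the control of the knockdown was a non-silencing shRNA in the GIPZ vector and the control of the overexpression an empty pReceiver-M02 vector. The plasmids were introduced by lipofection, and cells were kept under puromycin for the knockdown and under G418 for the overexpression. Each contrast therefore sets 1 selected population against another, and nothing in the sources says whether the 2 libraries of a group came from separate cultures. All p-values below measure the spread between these libraries, which may be technical.

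Type I interferons bind a receptor whose kinases JAK1 and TYK2 activate transcription factors, and STAT2 and IRF9 act together on an element called the ISRE in the promoters of interferon-stimulated genes. The IFIT proteins bind foreign RNA, in part as complexes with each other, and hinder its translation. The IFITM proteins sit in membranes and hinder the entry of enveloped viruses, IFI6 and IFI27 are small membrane proteins of the FAM14 family, and BST2 (tetherin) holds budding virus at the cell surface. In breast cancer this group is also known as part of a chronic interferon signature that some tumors and cell lines show without infection.

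RefSeq promoters of 300 bases (250 before the annotated start and 50 after it, GRCh38.p14) were listed for 8 of the 10 genes. IFIT2 and IFITM2 had no entry. The ISRE core was searched on both strands as GAAA, any 2 bases and GAAA again, which reads TTTC, any 2 bases and TTTC when it lies on the other strand. Overlapping matches were each counted. All 8 genes held at least 2 matches, whereas 3.57% of all 35116 promoters held at least 1 and 0.259% held at least 2. The windows around the matches are shown because they are the sequence feature these genes share apart from their names, each written 5′ to 3′ in the direction of its gene with the matches in capitals.
IFIT1, chr10:89392492-89392544, plus strand: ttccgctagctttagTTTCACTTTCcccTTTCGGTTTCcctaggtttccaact
IFIT3, chr10:89327826-89327899, plus strand: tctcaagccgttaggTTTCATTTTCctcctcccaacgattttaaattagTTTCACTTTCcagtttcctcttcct
IFIT5, chr10:89414508-89414573, plus strand: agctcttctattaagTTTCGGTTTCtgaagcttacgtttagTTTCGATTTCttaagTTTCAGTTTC
IFITM1, chr11:313985-314045, plus strand: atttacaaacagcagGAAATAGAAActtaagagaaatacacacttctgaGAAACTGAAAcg
IFITM3, chr11:320871-320927, minus strand: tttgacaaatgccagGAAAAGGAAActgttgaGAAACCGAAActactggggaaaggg
IFI6, chr1:27672261-27672363, minus strand: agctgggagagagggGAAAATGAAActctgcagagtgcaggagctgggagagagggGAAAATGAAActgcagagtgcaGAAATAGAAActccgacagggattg
IFI27, chr14:94110613-94110665, plus strand: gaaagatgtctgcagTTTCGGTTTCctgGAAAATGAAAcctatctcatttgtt
BST2, chr19:17405730-17405775, minus strand: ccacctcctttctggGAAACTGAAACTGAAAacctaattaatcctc
IFI6 and IFIT5 held 3 matches each, and the other six genes held 2. The pair in the BST2 window overlaps, so that 3 copies of GAAA stand 2 bases apart. All matches of IFIT1, IFIT3 and IFIT5 read TTTC first in the direction of the gene, those of IFITM1, IFITM3, IFI6 and BST2 read GAAA first, and IFI27 held 1 of each. IFIT3 and IFI27 had 2 promoter entries, and the first of each is shown. None of the 4 promoters listed for the relatives IFIT1B, IFITM5, IFI27L1 and IFI27L2 held a match, and 27 of the 44 other interferon-stimulated genes with an entry did. A match describes letters in this window and is not evidence of a bound factor.

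The libraries held between 22954226 and 27434677 expected counts. TRMT112 moved as the labels say: it fell by 1.23 on the log2 scale in MDA-MB-231 KD and by 0.76 in SUM159 KD, and rose by 0.48 in BT549 OE. The differences between the BT549 groups were wide. In OE against EV 70.6% of all tested genes were called, and between the controls of different lines 75.7% to 79.5% were. Replicates of a group differed by more than counting noise (chi-square over degrees of freedom 2.14 to 2.96), so none was a repeated deposit. Of the receptor genes that define triple-negative cells, ESR1 was not listed and PGR was at 0 outside BT549 EV. ERBB2 was present in every library, from 26.5 TPM in BT549 OE to 55.7 TPM in BT549 EV. Epithelial markers (6 genes) summed to 463 to 1023 TPM in MDA-MB-231 and SUM159 and to 1.94 to 5.73 TPM in BT549. Most of the sum in MDA-MB-231 and SUM159 was KRT8 and KRT18. EPCAM reached at most 4.00 TPM in these lines, and CDH1 and KRT19 at most 0.33. CDH1 and KRT19 were higher in BT549 EV than that. Within BT549 the 5 mesenchymal markers summed to 1746 to 1770 TPM in EV and 836 to 850 in OE. Most of that was VIM, with 1656 and 1674 TPM in EV and 599.5 and 593.5 in OE. FN1 and ZEB1 were lower in OE too, and CDH2 overlapped between the groups. SNAI2 went the other way, from 21.5 and 22.9 TPM to 206.4 and 197.6. The 5 fibroblast markers summed to 25.5 to 26.3 TPM in EV and 636.9 to 637.8 in OE, nearly all of it COL1A1. The 6 leukocyte markers stayed at or below 3.92 TPM in every library, with CD3E not listed. The part of these shifts in the results below was not tested.

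The control cells of the 3 lines differed in which of these genes they carried on polysomes. Levels are given here as TPM, the expected count per transcript length scaled to the same sum in each library, which allows genes to be compared with each other. In BT549 EV the 10 genes held 0.920% and 0.908% of all counts in the 2 libraries. The share was 0.127% and 0.124% in MDA-MB-231 EV and 0.157% and 0.165% in SUM159 EV. In BT549 OE it was 0.0169% and 0.0163%, below every other library.

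**Figure D1:**
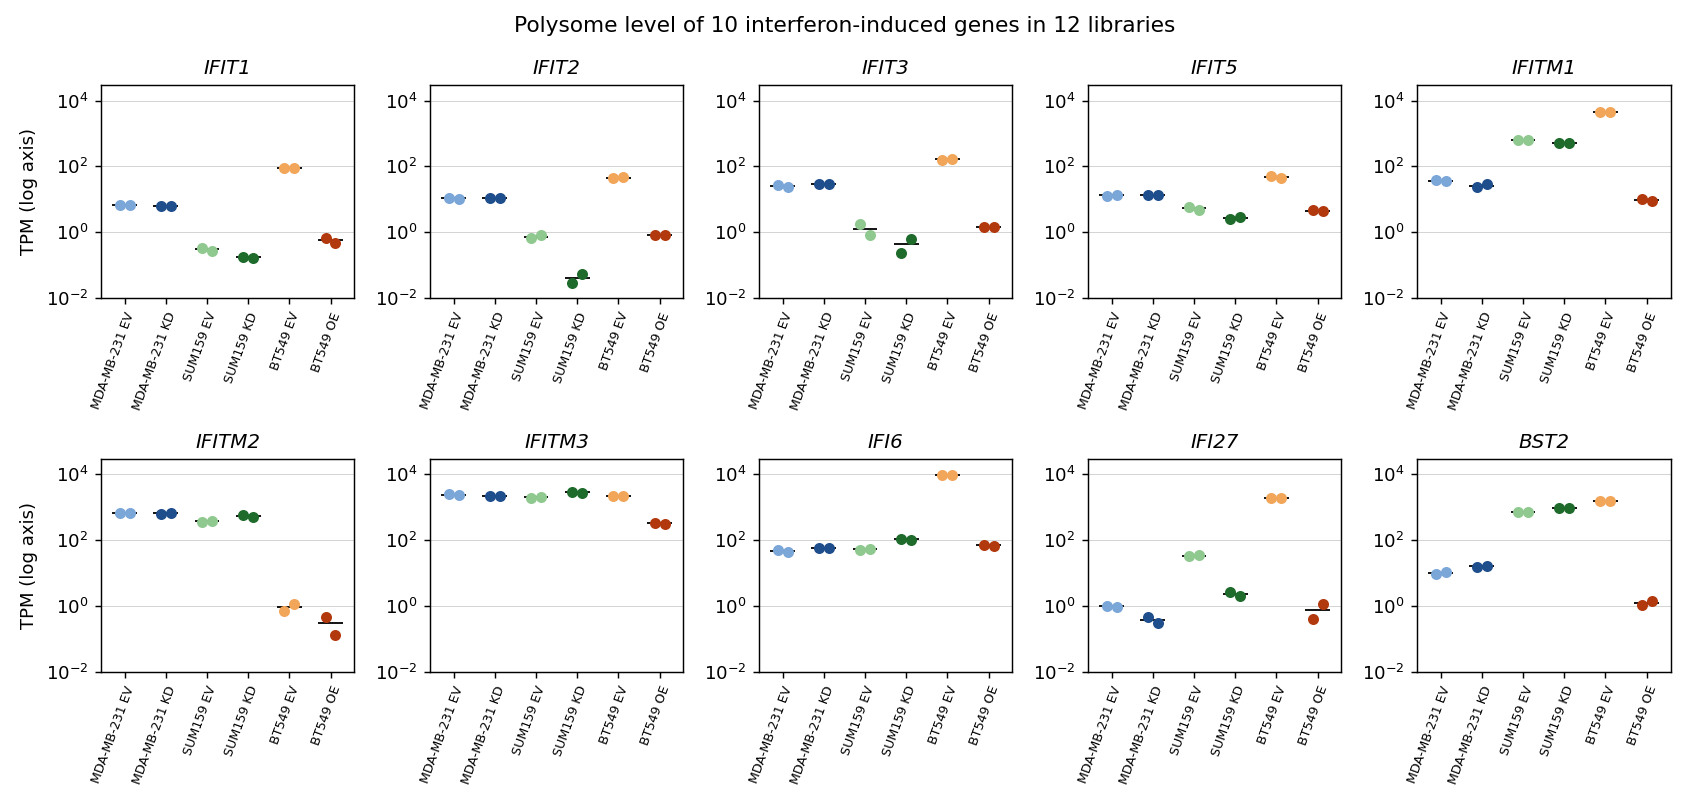
TPM (log axis) of each of the 10 genes in the 12 libraries, as points, with the mean of the 2 libraries of a group as a line. In BT549 EV, IFI6 stands at 9712 TPM and 9 of the 10 genes sit far above BT549 OE or, for IFITM3, above it by a smaller margin, while IFITM2 lies near 1 TPM or below in all 4 BT549 libraries.

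IFI6 was the most abundant of the 10 in BT549 EV, with 9849 and 9576 TPM, the rank of 5 among all 24559 symbols. IFITM1, the member of its family found mostly at the cell surface, followed with 4375 and 4577 TPM. IFITM3 had 2235 and 2234 TPM, IFI27 1964 and 1891, and BST2 1544 and 1523. The IFIT genes lay lower in the same cells, between 45.4 TPM for IFIT2 and 161.7 for IFIT3 on average. IFITM2 did not take part: it had 0.681 and 1.16 TPM.

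In MDA-MB-231 EV the leading gene was IFITM3, which acts in endosomes, with 2463 and 2395 TPM, followed by its close relative IFITM2 with 664 and 671 TPM. No other of the 10 reached 50 TPM there, and IFI27 had 0.998 and 0.934 TPM. In SUM159 EV, IFITM3 again led with 1970 and 2081 TPM, and BST2 with 707 and 718, IFITM1 with 621 and 639 and IFITM2 with 355 and 388 formed the next tier. IFIT1, which binds viral RNA lacking a proper cap, had 0.337 and 0.262 TPM in SUM159 EV and was the lowest of the 10.

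The make-up of the families differed between the groups. IFITM1 supplied 66.7% of the IFITM TPM in BT549 EV, 20.8% in SUM159 EV and 1.16% in MDA-MB-231 EV. In BT549 OE, IFITM3 supplied 97.1%. Among the IFIT genes, IFIT3 supplied 47.2% in BT549 EV and 45.5% in MDA-MB-231 EV, whereas IFIT5 supplied 69.7% in SUM159 EV and 61.6% in BT549 OE. IFIT5 is a sensor of RNA with a 5′ phosphate and forms no stable complex with the other IFIT proteins.

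**Figure D2:**
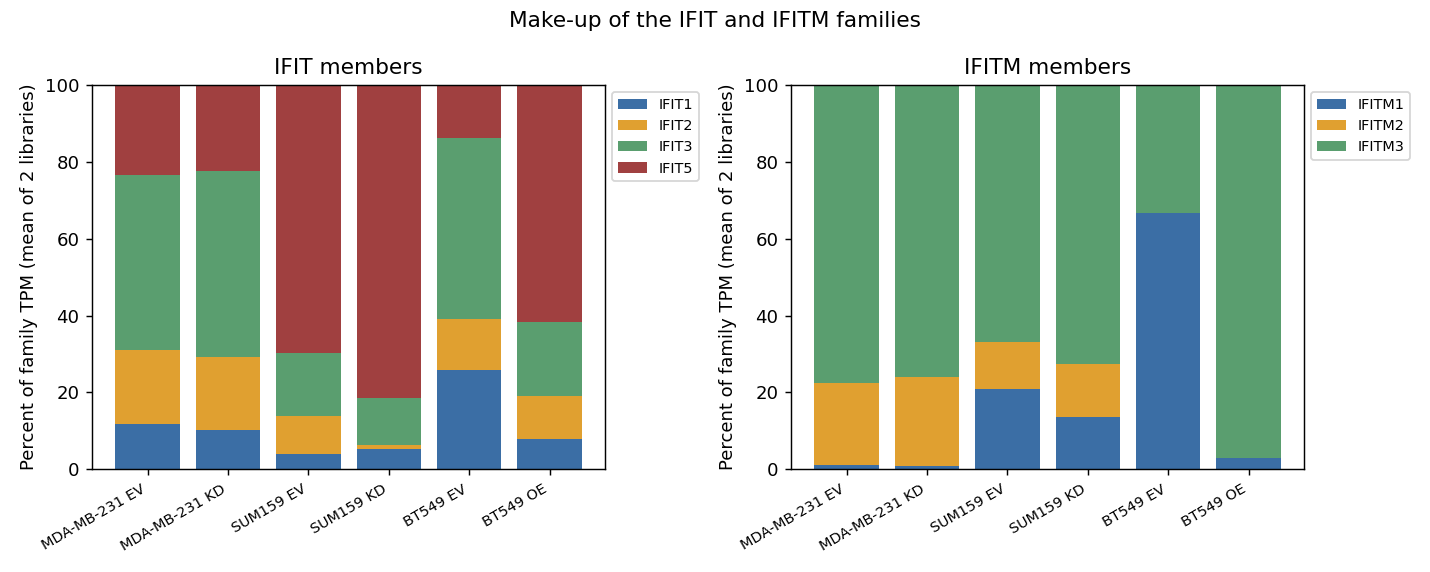
Stacked bars of each gene's percent of the TPM of its family (mean of 2 libraries, 6 groups), IFIT at left and IFITM at right. IFIT5 makes up 69.7% in SUM159 EV and 61.6% in BT549 OE but 13.7% in BT549 EV, and IFITM1 makes up 66.7% in BT549 EV and 2.85% in BT549 OE.

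Tests between groups used edgeR's quasi-likelihood test on counts summed per symbol, with Benjamini-Hochberg adjustment over all genes tested and a call at an adjusted p under 0.05. The values given with them are normalized counts, that is counts scaled to the mean effective library size, and a log2 fold change is the first group minus the second with its standard error (SE). No libraries of total RNA were made, so the amount of an mRNA and its loading onto ribosomes cannot be told apart, and in bulk samples neither can fewer cells with the mRNA and less of it per cell.

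Among the 3 comparisons of a changed TRMT112 level with its control, BT549 OE against EV had the median farthest from 0. Of the 10 genes, 9 fell and IFITM2 was not called, with all 10 values below 0, where 35% of all tested genes were lower, 35.6% higher and 70.6% called in either direction. The median log2 fold change of the 10 was -7.00, against 0.02 over all genes. The groups of 2 libraries did not overlap for any of the 10, including IFITM2, which was not called. The share of all tested genes without overlap was not counted, so this adds nothing to the calls.

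IFI27, which lies on chromosome 14 (chr14:94104836-94116695, plus strand, GRCh38), had 17000 and 16270 normalized counts in EV and 3.32 and 11.3 in OE. Its log2 fold change of -11.13 (SE 0.10, adjusted p = 6.3e-29) had only 8 of the 16538 genes below it. In counts this was 30225 in EV against 13 in OE, a ratio of 2287 with a 95% interval of 1337 to 4295 that covers counting error only. With so few counts in OE the fold leaned on the library: it was -10.51 without OE replicate 1 and -12.24 without OE replicate 2.

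BST2 (chr19:17402939-17405630, minus strand) had 23660 and 23160 normalized counts in EV and 16.6 and 21.5 in OE, a log2 fold change of -10.25 (SE 0.07, adjusted p = 7.9e-31). IFITM1 (chr11:310041-315272, plus strand) went from 44960 and 46560 to 104.1 and 93.9, a change of -8.85 (SE 0.05, adjusted p = 1.1e-31). Both were thus among the more abundant of the 10 in EV and, in OE, stood at 1.24 TPM for BST2 and 9.44 TPM for IFITM1.

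IFI6 (chr1:27666064-27672212, minus strand) had 122900 and 118600 normalized counts in EV and 921 and 835 in OE, a log2 fold change of -7.10 (SE 0.05, adjusted p = 3.3e-31). Despite that drop, its level in OE, 72.5 and 67.5 TPM, was above those of both MDA-MB-231 groups and of SUM159 EV.

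The IFIT genes lie side by side on the plus strand of chromosome 10. IFIT1 (chr10:89392546-89406487) had 5775 and 5838 normalized counts in EV and 45.4 and 30.6 in OE, and fell by 7.25 on the log2 scale (SE 0.09). IFIT3 (chr10:89327307-89377473), which stabilizes IFIT1, had 6054 and 6061 in EV and 48.7 and 52.1 in OE, and fell by 6.91 (SE 0.11). IFIT2 (chr10:89283694-89309271) had 2191 and 2438 in EV and 44.3 and 40.8 in OE, and fell by 5.76 (SE 0.11). The proteins of these 3 genes form complexes with one another, and no library of OE came near any library of EV for any of them.

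IFIT5 (chr10:89414568-89421605) stood apart from its neighbours, with 2303 and 2282 normalized counts in EV and 190.5 and 209.4 in OE, a log2 fold change of -3.52 (SE 0.08). The adjusted p of the 4 IFIT genes lay between 3.8e-26 and 2.9e-21.

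IFITM3 (chr11:319676-329475, minus strand) fell least among the 9, from 20920 and 20750 normalized counts to 3097 and 2945, a log2 fold change of -2.79 (SE 0.04, adjusted p = 4.4e-25). It kept 325 and 317 TPM in OE, the highest level of the 10 genes there. IFITM2 (chr11:303655-309397, plus strand) had 8.76 and 11.1 normalized counts in EV and 6.64 and 1.13 in OE. Its log2 fold change of -1.31 (SE 0.83, adjusted p = 0.163) rested on 18 against 7 counts. A gene this low could not have shown a fall like that of IFITM1 at this depth. Its value was -3.00 without OE replicate 1 and -0.57 without OE replicate 2, and it was called in neither.

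**Figure D3:**
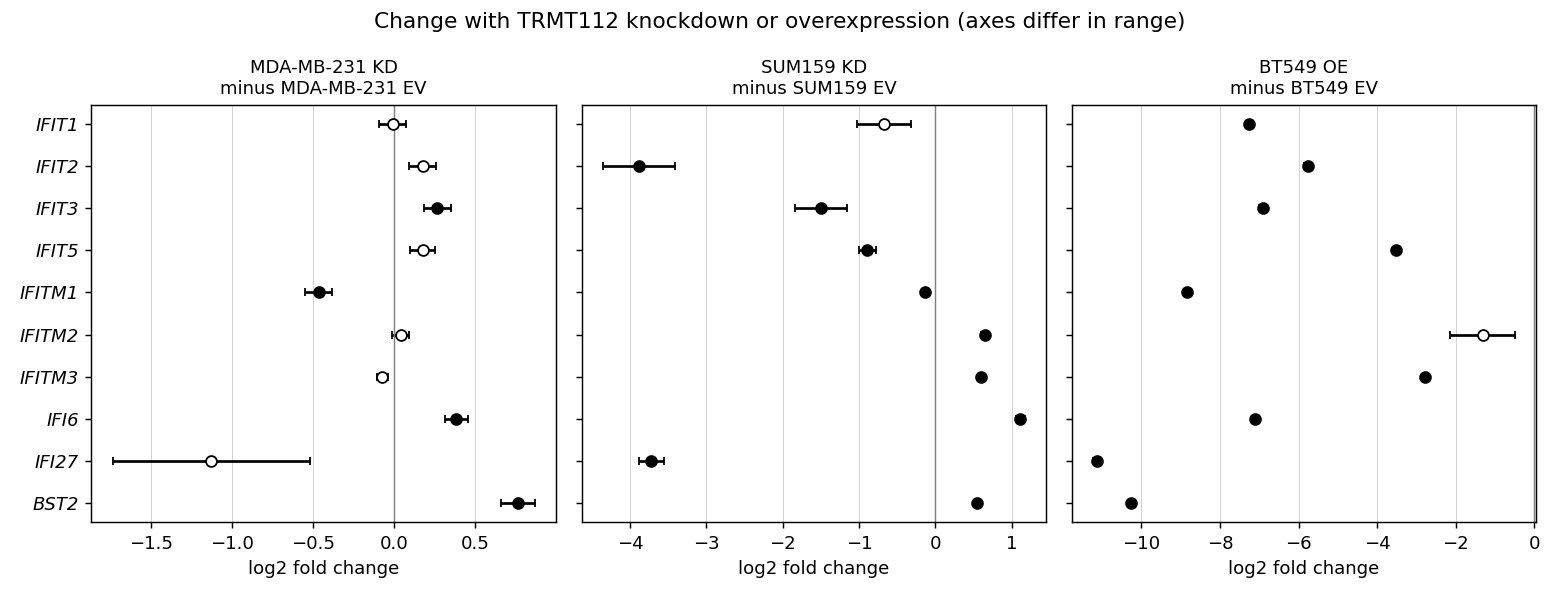
Log2 fold change of each gene (points; bars, standard error; n = 2 libraries per group) in the 3 comparisons of TRMT112 knockdown or overexpression with its control. Filled points passed the test at an adjusted p under 0.05. In BT549 OE all points lie below 0, down to -11.13 for IFI27, while in SUM159 KD they run from -3.88 for IFIT2 to 1.11 for IFI6.

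The neighbourhoods of the 10 genes were described next. Of 37 protein-coding genes within 100 kb of any of the 10, 26 were tested. In OE against EV 8 were higher, 10 lower and 8 not called, beside 35.6% higher and 35% lower over all tested genes, with a median log2 fold change of -0.05. MVB12A, which starts 92 bases from BST2, had a log2 fold change of -0.10 (adjusted p = 0.100), and PSMD13 and RIC8A, near IFITM2, had 0.07 and 0.01 and were not called. LIPA, a lysosomal lipase whose gene overlaps IFIT1, IFIT2 and IFIT3 on the opposite strand, fell by 0.39 (adjusted p = 4.3e-08). The strand setting of the counting was not given, so reads of the overlap cannot be assigned to a strand. LIPA had at most 3541 counts in any library.

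Some neighbours did fall far. PKP3, a desmosome protein near IFITM3, went from 138.0 and 176.1 normalized counts to 2.21 and 0. CH25H, itself an interferon-stimulated gene that oxidizes cholesterol, lies near IFIT2 and went from 29.6 and 28.8 to 0 in both libraries. SIGIRR, an inhibitor of interleukin-1 receptor signaling, fell by 1.79 (SE 0.08).

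**Figure D4:**
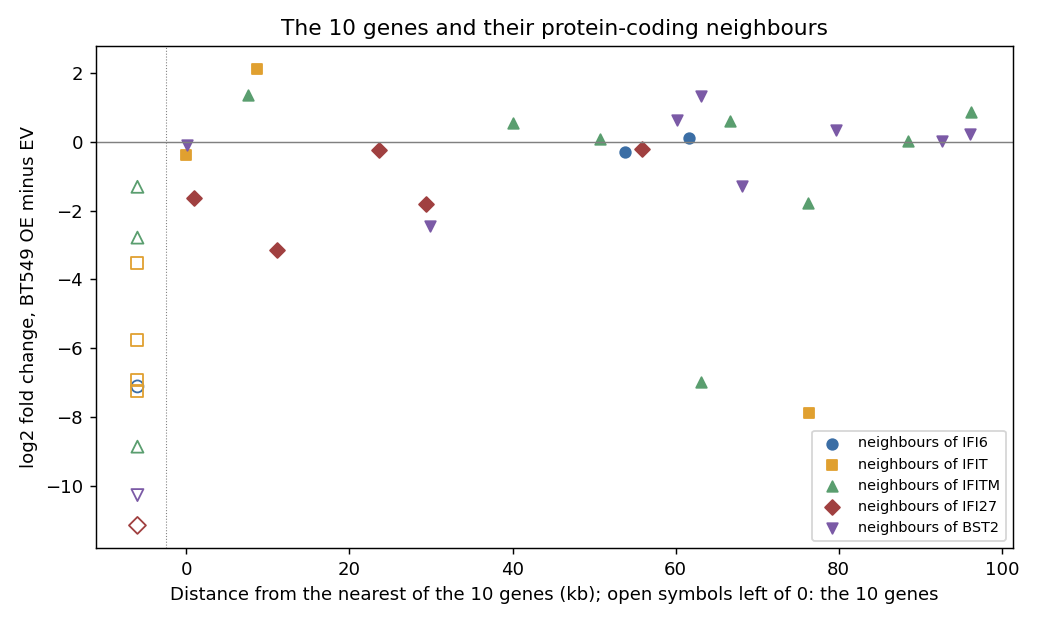
Log2 fold change in BT549 OE against EV of the 26 tested protein-coding neighbours (filled symbols) by distance from the nearest of the 10 genes in kb, with the 10 genes as open symbols left of 0. The neighbours have a median of -0.05 and the 10 genes a median of -7.00.

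The 3 relatives of the 10 genes that were tested were all lower in OE, beside 35% of all tested genes. IFI27L1, 990 bases from IFI27 and of the same FAM14 family, had a log2 fold change of -1.63 (SE 0.11, adjusted p = 2.1e-12), and IFI27L2 of -3.14 (SE 0.24, adjusted p = 4.1e-11). Both are also among the neighbours counted above. IFITM10 had 15 and 10 counts in EV and 1 and 2 in OE, and it too was called (adjusted p = 0.00080). In SUM159 KD, IFI27L1 (0.62, SE 0.08) and IFITM10 (1.75, SE 0.29) rose, and in MDA-MB-231 KD IFI27L2 fell (-0.45, SE 0.10). IFIT1B had at most 2 counts in any library and was not tested, and expression of IFITM5 is not analysed here.

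In SUM159 the knockdown split the 10 genes. Of the 10, 4 rose and 5 fell, where 28.6% of all tested genes were higher, 31.4% lower and 60.1% called in either direction, and IFIT1 was not called. The median log2 fold change was -0.40, against 0.00 over all genes. The genes that fell were IFIT2, IFIT3, IFIT5, IFI27 and, by little, IFITM1. Those that rose were IFITM2, IFITM3, IFI6 and BST2.

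IFI27 had 261 and 290 counts in SUM159 EV and 23 and 22 in KD, a log2 fold change of -3.72 (SE 0.16, adjusted p = 2.7e-15). Its FAM14 relative IFI6 went the other way, from 546 and 592 to 1302 and 1164, a change of 1.11 (SE 0.06, adjusted p = 1.2e-13). As a result IFI27 made up 39.2% of the summed TPM of this pair in EV and 2.17% in KD.

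The IFIT genes were scarce in SUM159 before the knockdown. IFIT2, which can trigger apoptosis when it is made in excess, had 28 and 30 counts in EV and 1 and 3 in KD, a log2 fold change of -3.88 (SE 0.47, adjusted p = 1.5e-07). The ratio of EV to KD in counts was 15.7, with a 95% counting interval of 5.81 to 59.5. Leaving out KD replicate 2 gave a log2 fold change of -4.69, and leaving out KD replicate 1 gave -3.43.

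IFIT3 had 54.5 and 30.2 normalized counts in EV and 8.07 and 20.8 in KD, a log2 fold change of -1.50 (SE 0.35, adjusted p = 0.00063). Its value ran from -2.37 without KD replicate 2 to -1.02 without EV replicate 1 (adjusted p = 0.0444), and it stayed called in each such fit. IFIT5 was the best measured of the family here and fell from 221.0 and 199.1 to 115.9 and 110.7, by 0.89 (SE 0.12, adjusted p = 4.2e-07). IFIT1 had 19 and 15 counts in EV and 11 and 12 in KD (log2 fold change -0.67, SE 0.35, adjusted p = 0.120).

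The IFITM genes of SUM159 were abundant and moved less. IFITM3 rose from 15910 and 17030 normalized counts to 25690 and 24160 (0.60, SE 0.03, adjusted p = 3.4e-13), and IFITM2 from 4210 and 4467 to 7394 and 6243 (0.65, SE 0.05, adjusted p = 2.2e-10). IFITM1 went the opposite way, from 5581 and 5833 to 5197 and 5191 (-0.14, SE 0.03, adjusted p = 0.0010). When the IFITM counts were summed, the sum rose by 0.48. BST2 rose from 9356 and 9623 to 14110 and 13560 (0.54, SE 0.03, adjusted p = 3.0e-13).

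In MDA-MB-231 the knockdown gave 4 calls among the 10 genes. IFIT3, IFI6 and BST2 rose, IFITM1 fell, and 6 were not called, where 21.2% of all tested genes were higher, 16.5% lower and 37.7% called in either direction. The median log2 fold change was 0.11, against 0.00 over all genes. In this line the balance of all calls leaned on the scaling, since 56.2% of them were higher with TMM and 36.7% with the library size alone.

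BST2 rose most in MDA-MB-231 KD, from 107.2 and 124.2 normalized counts to 190.2 and 203.3, a log2 fold change of 0.76 (SE 0.11, adjusted p = 3.7e-06). IFI6 rose from 461 and 424 to 581 and 572 (0.38, SE 0.07, adjusted p = 0.00015). IFITM1, a minor gene of its family in this line, fell from 295.4 and 283.1 to 196.7 and 222.6 (-0.46, SE 0.08, adjusted p = 0.00011). These 3 calls held under each alternative in which the gene was tested by itself.

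IFIT3 had 754.5 and 658.4 normalized counts in EV and 859.1 and 841.1 in KD, a log2 fold change of 0.27 (SE 0.08, adjusted p = 0.0107). This call did not hold throughout. It was lost without EV replicate 2 (0.18, adjusted p = 0.177), without KD replicate 1 (0.25, adjusted p = 0.0653) and with the library size alone (0.18, adjusted p = 0.0872).

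The other IFIT genes were not called in MDA-MB-231. IFIT2 had 412.0 and 401.8 normalized counts in EV and 460.9 and 459.6 in KD (0.18, adjusted p = 0.101), and IFIT5 had 415.8 and 422.8 in EV and 454.4 and 493.3 in KD (0.18, adjusted p = 0.0844). IFIT1 overlapped between the groups, with 322.7 and 328.7 against 321.3 and 326.6 (-0.01, SE 0.08). IFI27 had 8 counts in each EV library and 4 and 3 in KD, too few to call a change (-1.13, SE 0.61, adjusted p = 0.161).

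The abundant IFITM genes of MDA-MB-231 were within narrow limits. IFITM3 had 17480 and 16980 normalized counts in EV and 16760 and 16020 in KD (-0.07, SE 0.03, adjusted p = 0.107). It was called lower with the library size alone (-0.16), with a filter at a mean of at least 50 counts (-0.09) and in a fit of only the libraries compared (-0.08). IFITM2 had 6984 and 6899 in EV and 7076 and 7207 in KD (0.04, SE 0.05), and its sign turned with the library size alone (-0.05).

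The difference between the knockdown effects was tested in the same model as MDA-MB-231 minus SUM159. Of the 10 genes, 4 differed upwards and 4 downwards, where 27.7% of all tested genes were higher, 23.2% lower and 50.9% called in either direction, and IFIT1 and BST2 were not called. IFIT2 (4.06, SE 0.48), IFI27 (2.59, SE 0.78), IFIT3 (1.77, SE 0.35) and IFIT5 (1.07, SE 0.14) had a more positive value in MDA-MB-231. IFI6 (-0.73, SE 0.09), IFITM3 (-0.67, SE 0.05), IFITM2 (-0.61, SE 0.07) and IFITM1 (-0.33, SE 0.09) had a more positive value in SUM159. Without MDA-MB-231 KD replicate 1 the difference was no longer called for IFI27 (2.40, adjusted p = 0.0961) or IFITM1 (-0.24, adjusted p = 0.0730). For BST2 the difference was 0.22 (SE 0.11, adjusted p = 0.106), and it rose in both lines.

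The controls of the 3 lines were also compared with each other. These comparisons use the same EV libraries as the contrasts above and are not independent of them. BT549 EV had 9 genes higher and 1 lower than MDA-MB-231 EV, where 39.1% of all tested genes were higher, 40.4% lower and 79.5% called, and the same counts held against SUM159 EV, where 37.7% were higher, 40.7% lower and 78.4% called in either direction. In both, the gene that was lower was IFITM2 (-9.43, SE 0.14, and -8.76, SE 0.15), which had 18 counts in BT549 EV against 14979 in MDA-MB-231 EV and 8614 in SUM159 EV.

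The distance of BT549 EV from the other controls depended on the gene. IFI6 was higher by 8.09 (SE 0.05) than in MDA-MB-231 EV and by 7.73 (SE 0.05) than in SUM159 EV. IFI27 was higher by 11.11 than in MDA-MB-231 EV but by 5.91 than in SUM159 EV, and BST2 by 7.66 and 1.30. IFITM3 was nearly level in the 3 controls, with 0.27 (SE 0.03) over MDA-MB-231 EV and 0.34 (SE 0.03) over SUM159 EV. With the library size alone, which shifted the median of all genes by -0.31 in the first of these comparisons and by -0.21 in the second, the value against MDA-MB-231 EV was -0.04 and not called.

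MDA-MB-231 EV had 5 genes higher than SUM159 EV and 4 lower, where 36.4% of all tested genes were higher, 39.2% lower and 75.7% called in either direction. IFIT1 (4.24, SE 0.16), IFIT3 (4.06, SE 0.15), IFIT2 (3.79, SE 0.14), IFIT5 (1.00, SE 0.09) and IFITM2 (0.68, SE 0.05) were higher in MDA-MB-231 EV. BST2 (-6.35, SE 0.06), IFI27 (-5.20, SE 0.20), IFITM1 (-4.30, SE 0.05) and IFI6 (-0.36, SE 0.07) were lower. The low-IFIT line was thus the line with more BST2 and IFITM1. IFITM3, with 17480 and 16980 normalized counts against 15910 and 17030, overlapped between the groups (0.07, adjusted p = 0.0904) and was called under 7 alternatives, from 0.07 to 0.17.

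The order of the 6 groups in TPM differed from gene to gene. BT549 EV was first for 8 of the genes, MDA-MB-231 EV for IFITM2 and SUM159 KD for IFITM3. For IFIT2 and IFIT3 the libraries of BT549 OE and SUM159 EV overlapped in the middle of the order. The 3 lowest groups of IFI27, MDA-MB-231 EV, BT549 OE and MDA-MB-231 KD, overlapped with their neighbours. The MDA-MB-231 groups overlapped for IFIT5 and IFITM2. All other neighbouring groups were separate in TPM, which carries no TMM scaling. In normalized counts the MDA-MB-231 groups overlapped for IFIT1, and SUM159 EV and BT549 OE overlapped for IFIT5. IFITM3 was lower in MDA-MB-231 EV than in BT549 EV in normalized counts, but higher in TPM.

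Counts within a gene were carried by few transcripts. The leading transcript of each IFIT and IFITM gene has 2 exons, and those of IFI6, IFI27 and BST2 have 5. IFIT1-201 held nearly all IFIT1 counts, BST2-201 held 99.7% of those of BST2 and IFITM3-201 held 97.4% of those of IFITM3, over all libraries. IFIT2 and IFIT3 were split between more. IFIT2-201 held 43.0% of the IFIT2 counts over all libraries. IFIT3-202 held 89.2% of its counts in MDA-MB-231 EV and 70.8% in KD, whereas IFIT3-201 held 66.6% and 72.7% in the BT549 EV libraries and 0.14% and 22.3% in the OE libraries. The split between transcripts was an estimate of the counting, and where few reads decided it the libraries of a group were far apart, as in SUM159 EV with 41.1% and 74.2% for IFIT3-201. Windows of 150 bases were not shared between the leading transcripts of the 10 genes and any other gene, except for 41.2% of those of IFITM1, shared with a readthrough gene of at most 1 count, and 10.1% of those of IFI6, shared with LINC02574, which had at most 11 counts.

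The rest of the interferon pathway was described through lists drawn up with earlier results known. Ligands came first: of 10 interferon genes 5 were in the table and none passed the filter. IFNB1, encoding interferon beta, had 8 and 16 counts in BT549 EV and 0 in the other 10 libraries, where a count of 0 allows up to 3 counts. The other 4 ligand genes had at most 2 counts in any library.

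The receptors and kinases carry the signal from the cell surface. In BT549 OE, where 35% of all tested genes were lower, 5 of 8 tested fell and IFNAR1 rose, with a median log2 fold change of -0.69. TYK2 (-0.87), IFNGR1 (-0.93) and IL10RB (-0.50) were among those that fell. In SUM159 KD, where 31.4% of all tested genes were lower, 6 of the 8 fell and the other two were not called, with IFNGR1 (-1.10), TYK2 (-0.32) and IL10RB (-0.41) among those that fell. In MDA-MB-231 KD IL10RB rose by 0.16 and IFNAR1 fell by 0.29, and the other 6 were not called, where 37.7% of all tested genes were called.

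The transcription factors pass the signal on to the ISRE and related elements. In BT549 OE 6 of 7 fell, beside 35% of all tested genes, with IRF1 at -3.01 (SE 0.07), and IRF3, which sits upstream of interferon production, was not called (-0.06). In SUM159 KD 4 of 7 fell, IRF1 (-2.10) among them, beside 31.4% of all tested genes. In MDA-MB-231 KD 4 rose, IRF1 by 0.45 and IRF3 by 0.14 among them, beside 21.2% of all tested genes.

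Of the 9 genes that sense foreign nucleic acid or relay that signal, all 9 fell in BT549 OE, beside 35% of all tested genes, with a median of -1.97. The most abundant were STING1 (-0.53), MAVS (-1.19) and TBK1 (-0.99). In SUM159 KD 7 fell, TBK1 among them (-1.01), and MAVS rose by 0.40, beside 31.4% lower and 28.6% higher over all tested genes. In MDA-MB-231 KD STING1 and IKBKE rose and MAVS fell, beside 21.2% higher and 16.5% lower over all tested genes. Of 6 inhibitors of the pathway, 2 fell, 2 rose and 2 were not called in BT549 OE. These shares were near the 35% lower and 35.6% higher over all tested genes. USP18, itself induced by interferon, (-7.61) and SOCS3 (-0.55) fell, while PTPN2 rose by 0.57 and SOCS1 by 1.18. In SUM159 KD 4 of the 6 inhibitors fell and 2 were not called, beside 31.4% lower over all tested genes. In MDA-MB-231 KD 1 rose, 1 fell and 4 were not called, beside 21.2% higher and 16.5% lower.

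A list of 55 other interferon-stimulated genes gave the setting for the 10. In BT549 OE 54 of them fell and MX2 alone rose (0.27), beside 35% lower and 35.6% higher over all tested genes, with a median of -5.24, against -7.00 for the 10 genes. LY6E, a membrane protein that hinders the entry of some viruses, had a log2 fold change of -5.40, ISG15, a ubiquitin-like modifier, of -5.24 and its conjugating enzyme UBE2L6 of -6.93. In SUM159 KD 38 fell, and ISG15, PLSCR1 and LY6E rose, beside 31.4% lower and 28.6% higher over all tested genes. IFI6, BST2, IFITM2 and IFITM3 thus moved with 3 of the 55 and against 38 of them. In MDA-MB-231 KD 21 rose, UBE2L6 by 0.60 among them, and 8 fell, ISG15 among them (-0.42), beside 21.2% higher and 16.5% lower over all tested genes, so that the share that fell was near that of all genes. MX2, SOCS1, IKBKE, IFNAR1 and PLSCR1 were named after their values were seen.

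The shape over the 6 groups was compared through the group means of log2 CPM, centred per gene. The measure was the root mean square difference over the 6 groups, which describes likeness only. Among the 10 genes, IFIT1 and IFIT3 were the most alike (0.51), followed by IFIT2 and IFIT3 (0.60), and IFITM2 and IFI27 were farthest apart (7.29). IFITM1 was closer to BST2 (1.25) than to IFITM3 (2.65) or IFITM2 (5.78), its neighbours on the chromosome.

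Outside the 10, the nearest tested gene was NLGN1 for IFIT1 (0.62) and for IFIT3 (0.60), PNMA2 for IFIT2 (0.78) and TTC39B for IFIT5 (0.27). For the IFITM genes it was SLC6A15 for IFITM1 (0.93), PTPRM for IFITM2 (0.31) and TPCN1 for IFITM3 (0.23). It was RPRM for IFI6 (0.28), IFI44L for IFI27 (1.18) and NCAM2 for BST2 (1.11). Only IFI44L among these is itself on the list of interferon-stimulated genes. NLGN1 stood at -3.58 log2 CPM, the lowest value of this scale, in SUM159 EV, SUM159 KD and BT549 OE. SLC6A15 stood there in MDA-MB-231 EV and KD, RPRM in MDA-MB-231 EV and SUM159 EV, and PTPRM in BT549 OE. In those groups the likeness partly reflects this floor.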

How the data were processed

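Polysome RNA was measured in 12 libraries, grouped by their labels. Per the submitters' processing notes and the study's methods, the authors used Trimmomatic for trimming, HISAT2 with GRCh38 for alignment, SAMtools for duplicate removal, and Partek. The labels name a poly(A) kit, whereas the methods give a stranded kit for rRNA-depleted total RNA. How reads were counted, on which annotation and strand, is not given in the sources used here. What the authors deposited is 1 table of expected counts for Ensembl transcripts without normalization. In 5.08% of rows, 8 columns (all libraries but those of BT549) hold a question mark, which was taken as 0. No transcript was at 0 in all BT549 libraries, so transcripts undetected in BT549 are not in the table.

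Transcript IDs were matched to GENCODE 44 ignoring version (79.65% of IDs and 99.25% to 99.41% of the counts), and expected counts were summed per symbol and rounded. Genes were filtered by filterByExpr, scaled by TMM and fitted with 6 group means over all 12 libraries in edgeR 4.0.16 (R 4.3.3; quasi-likelihood test, Benjamini-Hochberg adjustment, 6 residual degrees of freedom). This test was tried on simulated data. TPM was computed from the counts and annotated lengths. Intervals of count ratios are exact at 95%. They and the allowance of 3 counts for a 0 cover counting error only, as the data hold no molecular identifiers. Tables were prepared in Python 3.11.15 (pandas 2.3.3) and figures drawn with matplotlib 3.10.9.

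Named genes are all 10 genes, their relatives, protein-coding genes within 100 kb, the 3 of each pathway list with the highest mean TPM, the nearest pattern of each gene, and TRMT112. The genes and lists were chosen with earlier results of these data known. The alternatives were scaling by RLE or by library size only, other filters (none, or a minimum mean of 50 counts), rows with a question mark left out, fits of only the libraries compared, the IFITM genes summed, a replicate block, DESeq2 1.42.0, leaving out each library, and shorter lengths for TPM.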

Additional observations from a re-analysis of the deposited data

Results flagged for a closer look

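The knockdown effect differed between MDA-MB-231 and SUM159 for 8 of the 10 genes, beside 50.9% of all tested genes, by edgeR's quasi-likelihood test of the difference (MDA-MB-231 minus SUM159) on the log2 scale. IFIT2 differed by 4.06 (adjusted p = 1.5e-07), from 0.18 in MDA-MB-231 and -3.88 in SUM159. IFIT3 differed by 1.77 (adjusted p = 0.00019), from 0.27 and -1.50. IFIT5 differed by 1.07 (adjusted p = 7.5e-07), from 0.18 and -0.89. IFI27 differed by 2.59 (adjusted p = 0.0079), from -1.13 and -3.72, with 3 to 8 counts in each MDA-MB-231 library.

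For the other four the value was lower in MDA-MB-231. IFITM1 differed by -0.33 (adjusted p = 0.0039), from -0.46 and -0.14, and IFITM2 by -0.61 (adjusted p = 2.4e-07), from 0.04 and 0.65. IFITM3 differed by -0.67 (adjusted p = 5.1e-11), from -0.07 and 0.60. IFI6 differed by -0.73 (adjusted p = 6.5e-07), from 0.38 and 1.11. The efficiency of the knockdown also differed between the lines, since TRMT112 fell by 1.23 in MDA-MB-231 and by 0.76 in SUM159. The part of this efficiency in the differences was not tested.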

How the results depend on the processing

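Of 70 pairs of a gene and a comparison, 59 were called, and 50 of these were called in the same direction under every alternative. The number of genes called stayed within 1.5 times its value throughout. In MDA-MB-231 KD against EV it was 4, from 3 to 4 when a library was left out. It was 9 for BT549 OE and 9 for SUM159 KD in each such fit, and for the difference of the knockdown effects it ran from 6 to 8. Where a library was left out, the lone library of its group was assumed to vary like those of the other groups.

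Signs turned in few places. IFIT1 in MDA-MB-231 KD, not called at -0.01, was 0.0131 with RLE size factors, 0.0031 with no filter, 0.0129 with DESeq2, and ran from -0.0231 to 0.0097 with a library left out (0.0055 without KD replicate 1). Library size only gave -0.0491 for IFITM2 in MDA-MB-231 KD and -0.0411 (adjusted p = 0.235) for IFITM3 in BT549 EV against MDA-MB-231 EV. It shifted the median of all genes by -0.31 there, and higher calls were 38.4% of all calls in place of 49.1%. Summing the IFITM genes gave 0.478 in SUM159 KD (IFITM1). For BT549 EV the sum gave 1.445 against MDA-MB-231 EV and 1.329 against SUM159 EV (IFITM2). It gave -0.116 for MDA-MB-231 EV against SUM159 EV (IFITM2 and IFITM3) and -0.0432 in MDA-MB-231 KD (IFITM2). These values pool the genes of the family, so their sign can differ from that of a single gene. Other changed calls stand beside their genes above, and their cause was not tested.

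With the replicate number as a block, the genes called were 9 in BT549 OE, 4 in MDA-MB-231 KD and 9 in SUM159 KD, as without it. Same-numbered libraries did not deviate together (correlations 0.021, -0.011 and 0.028). This gave no sign that the numbers pair the samples, but a pairing with small effects would not be seen this way. With 150 bases taken off each length, 265 of 270 pairs of genes kept their order of TPM. Depth limits IFITM2 in BT549, IFI27 in MDA-MB-231 and IFIT1 and IFIT2 in SUM159, each with at most 30 counts per library in either group.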
